A study of Mus musculus with 6 samples.

Results

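The 66 genes described here are named for proteins of the cytosolic ribosome, and include paralogs and 2 copies classed as pseudogenes. They were chosen by symbol, as those of large subunit proteins (Rpl and a number, Rplp0, Rplp1 and Rplp2) and small subunit proteins (Rps and a number, Rpsa), without symbols marked as pseudogenes and without the Rps6k kinases. Each gene stands for 1 probe set, the brightest of those annotated to it alone, and the 66 are part of 22180 genes measured on 6 Affymetrix arrays. MC3T3-E1 cells are immature osteoblasts grown as a line, derived from the skull cap (calvaria) of the mouse. In 3 samples the differentiating cells received 1 µM NU7441, which inhibits DNA-PKcs, the catalytic subunit of a DNA repair kinase, and in 3 samples DMSO, its vehicle. Both groups shared all else that the labels state: growth to confluency in medium with 10% serum, then osteogenic medium holding β-glycerophosphate at 10 mM together with ascorbic acid at 50 µg/ml, with whole-cell total RNA taken at day 14. A single cell line was used. Nothing in the labels ties the replicates to separate cultures, and p-values therefore reflect the spread of these samples alone, which may be technical.

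A ribosome is built from ribosomal RNA and a fixed set of proteins in a small subunit, which decodes the messenger RNA, and a large subunit, which joins amino acids and holds the tunnel through which the new chain leaves. Most of the proteins are needed in equal amounts, and the messenger RNAs of the set are among the most abundant of any growing cell. Most of these mRNAs begin with a C followed by a run of pyrimidines, the 5′ terminal oligopyrimidine tract, through which mTORC1 signalling and the RNA-binding protein Larp1 govern their translation. The kinase studied here phosphorylates alphaNAC, a protein that binds ribosomes as one subunit of the nascent polypeptide-associated complex.

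Of the 80 proteins listed as the canonical set, 76 have a symbol that fits the choice, and 57 of those were measured. Out of the full list, they were 35 of 47 from the large and 22 of 33 from the small subunit. The other 9 of the 66 genes were paralogs or copies with an l in the symbol: Rpl3l, Rpl6l, Rpl7l1, Rpl10l, Rpl22l1, Rpl32l, Rpl39l, Rps4l and Rps27l. All 66 were found in RefSeq, which classes 64 as protein coding and 2, Rpl6l and Rps4l, as pseudogenes. A further 19 canonical genes whose symbols fit had no probe set of their own, 12 of them because their probe sets carried several symbols. Ribosomal protein genes have many near-identical processed copies in the genome, so a probe set named for one gene may also read RNA of its copies, and each value below is uncertain in that respect.

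The start of the mRNA is the stretch of these genes with the best known shared sequence. The windows below run from 15 bases before to 15 bases after the start annotated by RefSeq (GRCm38.p6), 5′ to 3′ on the gene's strand, and capitals mark the longest run of at least 6 C or T bases where there is one. The run may lie anywhere in the window, also wholly before the annotated start, as in Rpl13. It therefore need not be the tract that begins the mRNA. Shown first are 8 genes that had an unadjusted p under 0.05, followed by Rps6, Rpl35, Rpl7a and the stalk gene Rplp2, which did not.
Rpl27a, chr7:109519180-109519209, + strand: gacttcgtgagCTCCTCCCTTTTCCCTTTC
Rps18, chr17:33955651-33955680, − strand: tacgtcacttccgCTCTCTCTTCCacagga
Rpl13, chr8:123102335-123102364, + strand: TTCCCTTTCgcctgattttgattggcgttt
Rps12, chr10:23787195-23787224, − strand: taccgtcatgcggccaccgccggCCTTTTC
Rpl39l, chr16:10170213-10170242, + strand: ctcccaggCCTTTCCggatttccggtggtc
Rps28, chr17:33824548-33824577, − strand: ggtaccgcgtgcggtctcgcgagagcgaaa
Rplp0, chr5:115559452-115559481, + strand: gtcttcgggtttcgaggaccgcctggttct
Rps3, chr7:99483695-99483724, − strand: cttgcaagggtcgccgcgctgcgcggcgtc
Rps6, chr4:86857353-86857382, − strand: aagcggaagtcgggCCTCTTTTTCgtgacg
Rpl35, chr2:39005117-39005146, − strand: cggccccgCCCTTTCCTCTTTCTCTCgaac
Rpl7a, chr2:26910792-26910821, + strand: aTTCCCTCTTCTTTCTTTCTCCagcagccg
Rplp2, chr7:141447636-141447665, + strand: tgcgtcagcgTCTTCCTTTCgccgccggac
The capitals span 21 bases in Rpl7a, 19 in Rpl27a, 18 in Rpl35 and 10 in Rps6, while Rps28, Rplp0 and Rps3 have no run of 6 in their window. Rpl22, also at an unadjusted p under 0.05, is not shown, and none of its windows holds such a run. Rps6, Rpl35, Rpl7a and Rplp2 all hold one, where 24 of 42 windows of the canonical genes not at that threshold do.

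Over all annotated starts of the measured genes, 32 of 60 windows, or 53.3%, held such a run on the gene's strand, against 29.2% of all 32851 mouse windows and 33.8% of those of mitochondrial ribosomal proteins. In the full 300 bases from 250 before to 50 after the start, 34 of the 60, or 56.7%, held CGGAAG or its complement CTTCCG, the core bound by ETS factors, searched on both strands and free to overlap a C and T run. The share was 16.9% over all mouse promoters and 54.4% over those of mitochondrial ribosomal proteins. The run did not separate the genes with an unadjusted p under 0.05: 4 of 9 windows of such canonical genes held it, against 24 of 42 windows of the other canonical genes. A match describes the letters only, wherever they lie in the stretch searched, and no match says only that these letters are not in it.

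The 6 arrays had log2 medians of 6.38 to 6.42 and pairwise correlations of 0.989 to 0.993. The 10 osteoblast markers, among them Sp7, Ibsp and Col1a1, were measured at levels of 7.34 to 13.49, and all 10 had a positive difference, with a median of 0.52 and a range of 0.04 to 0.94 (the highest in Ifitm5). At an unadjusted p under 0.05 stood 1 of them, and 7 with same-numbered samples as pairs, all higher. Of all genes, 3.49% were higher at that threshold, and 4.71% with pairs. Pairs with a variance trend and robust prior, added after the data were seen, called 5, namely Alpl, Pth1r, Sp7, Ifitm5 and Ibsp. Their adjusted p-values were 0.0026 to 0.017 in limma with that model, which called 0.451% of all genes. Treatment alone and pairs alone each called 0%. Of other cell types that such a culture could hold, markers were at 5.14 to 6.54 for 6 adipocyte genes, 4.64 to 7.41 for 6 skeletal muscle genes and 4.59 to 7.81 for 6 macrophage and endothelial genes. Of 6 chondrocyte genes 5 were at 5.10 to 8.37 and Sox9 at 10.44. No detection calls were used, and probe sets differ in brightness for equal RNA, so these levels do not show which genes are absent. Among these lists Fabp4, an adipocyte gene, was at 4.87 ± 0.26 with NU7441 and 5.87 ± 0.32 with DMSO (SD, n = 3 each), a difference of -0.99 (SE 0.19, adjusted p = 0.598 in limma, and 0.021 with pairs, a variance trend and robust prior), while the 6 adipocyte genes had a median of 0.05. Prkdc, which encodes the inhibited kinase, was at 8.44 ± 0.03 with NU7441 and 8.40 ± 0.06 with DMSO (log2, SD, n = 3 each), which does not bear on the kinase's activity.

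Most ribosomal protein genes had slightly higher signal with NU7441. In bulk RNA, more cells with a transcript and more of it per cell cannot be told apart. Of the 66, 54 had a positive log2 difference (NU7441 minus DMSO) and 12 a negative one, with a median of 0.08, where 51.3% of all genes had a positive difference and the median over all genes was 0.0036. None of the 66 passed limma's test at an adjusted p under 0.05, and 0% of all genes did, the smallest adjusted p among the 66 being 0.698. At an unadjusted p under 0.05 stood 11 of the 66, all higher, where 6.79% of all genes reached that threshold, 3.49% higher and 3.30% lower. With same-numbered samples as pairs, 8 were higher and 1 lower at that threshold, against 4.71% and 4.66% of all genes. Pairs with a variance trend and robust prior, added after the data were seen, called 0.451% of all genes and none of the 66. The 3 values with NU7441 all lay above the 3 with DMSO in 22 of the 66 genes and all below in 0, against 6.13% and 6.64% of all genes. The 66 were read on the same 6 arrays, so they are not 66 independent observations. The count of 54 lay between 48, without DMSO 1, and 59, without DMSO 2. The count at an unadjusted p under 0.05, 11, was 3 without DMSO 1, 2 without DMSO 3 and 16 without DMSO 2. Of all genes, 7.87%, 7.61% and 6.13% reached that threshold there. Without NU7441 1 the count was 7, and it was 3 without NU7441 2 and without NU7441 3, against 6.03%, 5.31% and 5.29%. Each count of 3 held 2 higher and 1 lower. The count was 5 with each array centred on its median and 6 with each gene's dimmest probe set, against 6.67% and 6.68% of all genes. It was 15 after quantile normalization and 18 with a variance trend and robust prior together, against 6.43% and 6.81%.

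**Figure D1:**
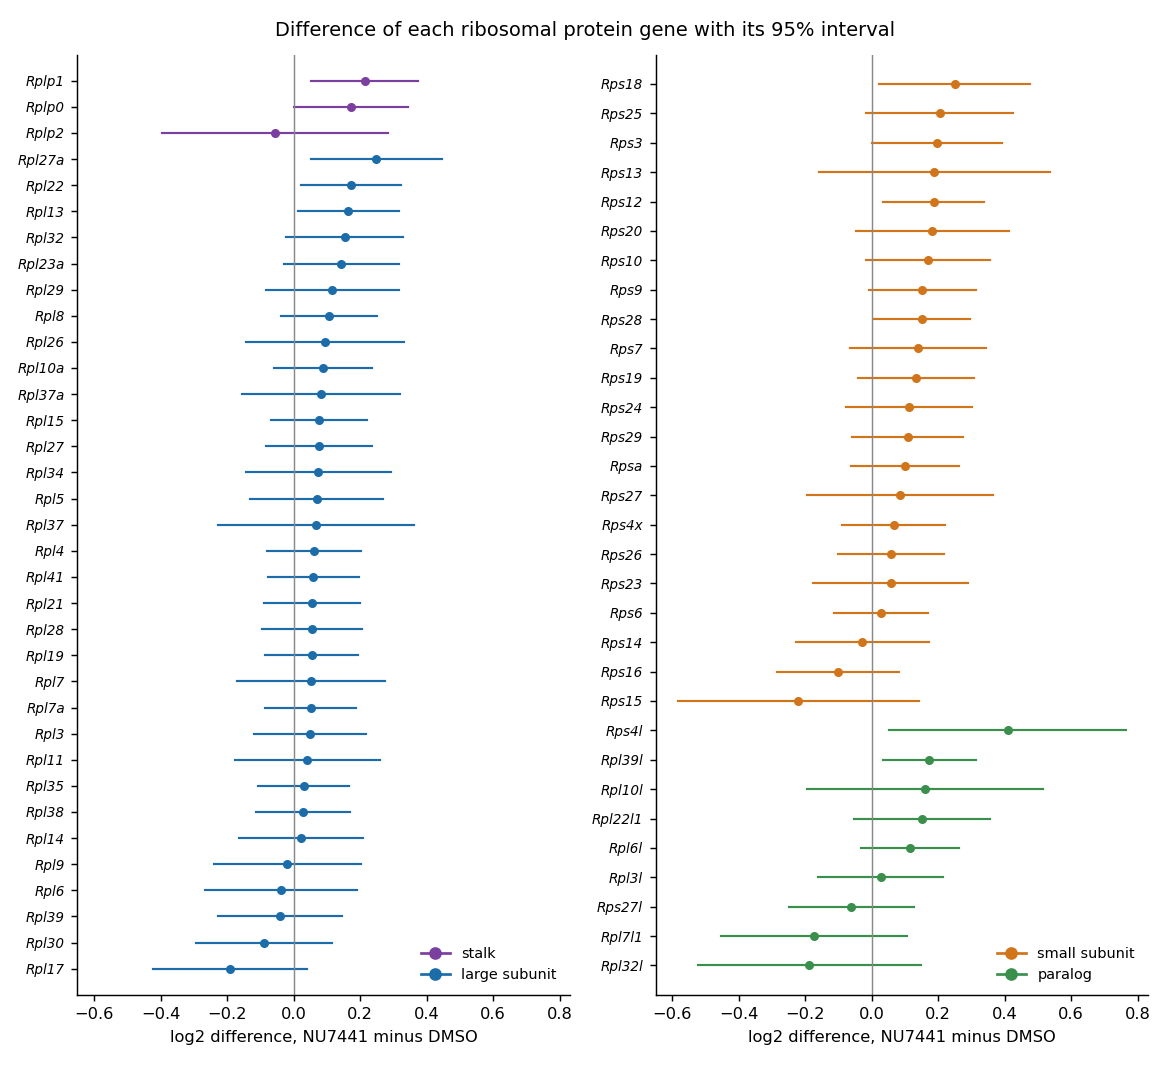
Log2 differences (NU7441 minus DMSO, horizontal axis) of the 66 ribosomal protein genes, as points with 95% intervals from limma, stalk and other large subunit genes on the left, small subunit genes and paralogs on the right. Points right of 0 are higher with NU7441, and 54 of 66 are; the intervals are wide against the differences, the lowest being -0.22 in Rps15 and the highest 0.41 in Rps4l.

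The differences were small. For all 66 genes the 95% interval stayed inside a 2-fold change in either direction, and for 61 inside 0.5 on the log2 scale. The same held for 22001 and 19287 of all 22180 genes, so narrow intervals were common on these arrays. The brightest of the 66, Rpl41, which encodes a peptide of the large subunit, was at 13.48 ± 0.01 with NU7441 and 13.42 ± 0.01 with DMSO (SD, n = 3 each), close to the arrays' maxima of 13.94 to 13.96. Its difference was 0.06 (SE 0.06), and its groups did not overlap. Whether signal so near the maximum is flattened was not tested.

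The stalk of the large subunit is the flexible arm that recruits elongation factors, made of Rplp0 at its base and of the acidic proteins Rplp1 and Rplp2. Rplp1 had the smallest p of all 66 genes. It was at 12.76, 12.79 and 12.88 in NU7441 1 to 3, against 12.60, 12.65 and 12.55 in DMSO 1 to 3. Every NU7441 value lay above every DMSO value, with a log2 difference of 0.21 (SE 0.07, adjusted p = 0.698 in limma), a ratio of 1.16. The base protein gene Rplp0 was at 12.19, 12.21 and 12.19 with NU7441, against 11.94, 12.14 and 12.00 with DMSO. Its groups were apart as well, the nearest values being those of Rplp0 in NU7441 3 and DMSO 2, and its difference was 0.17 (SE 0.07). Rplp2 had a dim probe set, at 5.98, 6.06 and 6.32 with NU7441 and 5.93, 6.43 and 6.17 with DMSO. These values overlapped, with a difference of -0.06 (SE 0.14). No second probe set named for Rplp2 alone was on the arrays.

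Among the other large subunit genes, 27 of 32 had a positive difference. Rpl27a, a core protein, was at 7.45, 7.47 and 7.62 with NU7441, against 7.19, 7.39 and 7.22 with DMSO, with no overlap and a difference of 0.25 (SE 0.08). Rpl22, an RNA-binding protein that many cells can do without, was at 7.62, 7.61 and 7.63 with NU7441, against 7.39, 7.52 and 7.44 with DMSO, a difference of 0.17 (SE 0.06). The 3 NU7441 values of Rpl22 were nearly the same and all above DMSO. Rpl13 was at 11.06, 11.05 and 11.08 with NU7441, against 10.91, 10.96 and 10.83 with DMSO, again without overlap, a difference of 0.17 (SE 0.06). Rpl32 differed by 0.15 (SE 0.07) and Rpl23a, which lies at the tunnel exit, by 0.14 (SE 0.07). Rpl32 did not overlap between groups, and in Rpl23a the value of DMSO 2 lay within the NU7441 range.

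Rpl17, which lines the exit tunnel, went the other way, at 7.54, 7.60 and 7.84 with NU7441 and 7.88, 7.92 and 7.74 with DMSO, a difference of -0.19 (SE 0.10). Its groups overlapped through the arrays numbered 3. The other negative values were those of Rpl30, Rpl39, Rpl6 and Rpl9, from -0.09 to -0.02. Rpl5 and Rpl11, which together bind and restrain Mdm2 when ribosome assembly fails, differed by 0.07 (SE 0.09) and 0.04 (SE 0.09), with overlapping groups. Very bright genes such as Rpl19, Rpl21, Rpl28 and Rpl35, all above 13, had differences of 0.03 to 0.06. Rpl3, which reaches toward the peptidyl transferase centre, differed by 0.05 (SE 0.07).

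Small subunit genes had a median difference of 0.12, with 19 of 22 positive, beside 0.06 in the large subunit with its stalk, with 29 of 35 positive. Whether the subunits differ was not tested, and with the dimmest probe set of each gene both medians were 0.07. With probe sets averaged they were 0.09 in the small and 0.07 in the large subunit. Without DMSO 1 the large subunit median was 0.04, as it was with each array centred on its median. Rps12 was at 12.10, 12.14 and 12.22 with NU7441, against 11.95, 11.96 and 11.99 with DMSO. The groups were apart, with a difference of 0.19 (SE 0.06), and each same-numbered pair gave a positive value. Rps18, a protein of the head of the subunit, was at 8.65, 8.61 and 8.55 with NU7441, against 8.22, 8.54 and 8.29 with DMSO, a difference of 0.25 (SE 0.10). In Rps18 the value of DMSO 2 came close to the lowest NU7441 value. Rps28 was at 12.86, 12.89 and 12.88 with NU7441, against 12.71, 12.78 and 12.69 with DMSO, with no overlap, a difference of 0.15 (SE 0.06). Rps3, which lies at the mRNA entry and also has roles in DNA repair, was at 11.02, 11.21 and 11.14 with NU7441, against 10.82, 11.01 and 10.95 with DMSO. Its difference was 0.20 (SE 0.08), and the value of NU7441 1 barely exceeded that of DMSO 2.

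**Figure D2:**
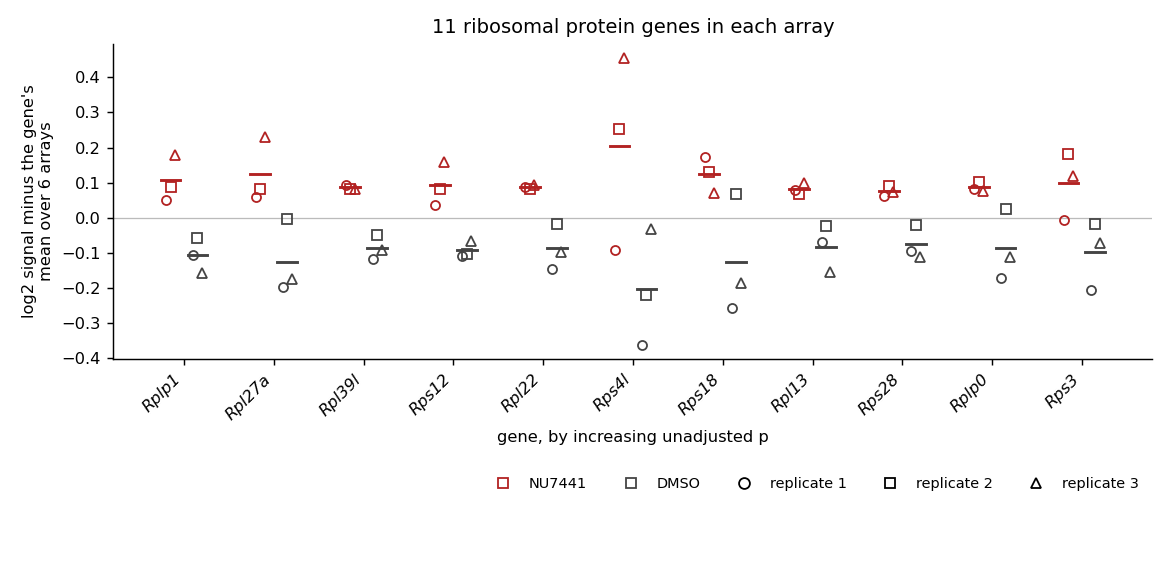
Log2 signal of the 11 genes with an unadjusted p under 0.05, less each gene's mean over the 6 arrays (vertical axis), with NU7441 in red left of DMSO in grey, symbols for the replicate number and bars for group means. In all but Rps4l the 3 NU7441 values lie above the 3 DMSO values, and DMSO 2 is often the DMSO array nearest to NU7441.

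Of the next small subunit genes by p, Rps9 differed by 0.15 (SE 0.07) without overlap, Rps25 by 0.20 (SE 0.09), Rps10 by 0.17 (SE 0.08) and Rps20 by 0.18 (SE 0.10), the last 3 with overlapping groups. Rps6, the substrate of the S6 kinases, was at 13.44, 13.48 and 13.44 with NU7441 and 13.39, 13.44 and 13.44 with DMSO. These values overlapped, with a difference of 0.03 (SE 0.06). Rps19 and Rps26, which are mutated in human Diamond-Blackfan anaemia, differed by 0.13 (SE 0.07) and 0.06 (SE 0.07). Negative values were found in Rps14, at -0.03, Rps16, at -0.10, and Rps15, at -0.22 (SE 0.15), the lowest of the 66. Rps15 was at 6.43, 6.45 and 6.47 with NU7441, against 6.39, 7.03 and 6.58 with DMSO, so that most of its difference lay in DMSO 2. Other parts of the subunit whose symbols fall outside the choice gave like values, Fau with 0.08 (SE 0.07) and Rps3a1 with 0.07 (SE 0.10).

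The 9 paralogs differed among themselves. Rps4l, a transcribed pseudogene in RefSeq, had the highest difference of the 66, with 5.88, 6.22 and 6.42 with NU7441 against 5.61, 5.75 and 5.94 with DMSO. The groups overlapped, yet each same-numbered pair gave a positive value, 0.27, 0.47 and 0.49, and the mean difference was 0.41 (SE 0.15). Rpl39l, the paralog of Rpl39 best known from testis, was at 6.88, 6.87 and 6.87 with NU7441, against 6.67, 6.74 and 6.70 with DMSO. Its groups were apart by more than their spread, with a difference of 0.17 (SE 0.06). Rpl22l1, whose product can replace that of Rpl22, differed by 0.15 (SE 0.09), in the same direction as Rpl22 itself. Rps27l, a p53 target, differed by -0.06 (SE 0.08) while Rps27 differed by 0.08 (SE 0.12), all with overlap.

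Rpl7l1, a relative of Rpl7, averaged 8.91 ± 0.14 with NU7441 and 9.09 ± 0.19 with DMSO (SD, n = 3 each). Every same-numbered pair was lower with NU7441, by -0.11, -0.22 and -0.19, although the groups overlapped and the difference was -0.17 (SE 0.12). Rpl3l, the striated muscle form of Rpl3, differed by 0.03 (SE 0.08) at 5.34 ± 0.12 with NU7441 and 5.31 ± 0.04 with DMSO (SD, n = 3 each). Rpl10l and Rpl32l lay at the bottom of the arrays, at 3.49 and 3.02 with NU7441 and 3.33 and 3.21 with DMSO, where a difference is uncertain. Rpl6l, though a pseudogene, was at 12.07 with NU7441 and 11.96 with DMSO, without overlap, a difference of 0.11 (SE 0.06). Which transcripts its probe set reads was not tested.

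By brightness, the counts differed among the 66 genes, while the median difference was nearly the same. The brightest 10 percent of all genes, those at 10.10 or above, held 34 of them, and 33 of these 34 had a positive difference, with a median of 0.08, where 37.9% of all genes that bright did. The exception was Rpl9 at -0.02 (SE 0.09). In 17 of the 34 the NU7441 values all lay above the DMSO values and in 0 below, where this was so for 112 and 274 of all 2219 genes that bright. Of the 32 dimmer genes 21 had a positive difference, with a median of 0.07, and 5 had all NU7441 values above all DMSO values, against 6.13% of all genes. Replicates also spread more in the dimmer genes. Their median SD was 0.09 with NU7441 and 0.12 with DMSO, against 0.04 and 0.05 in the 34. Whether the counts differ through this spread was not tested. Without DMSO 1, 17 of the 32 were positive, with a median of 0.04, and without DMSO 2 it was 25. Among the 2185 other genes of the brightest 10 percent, 809 had a positive difference and 1376 a negative one, with a median of -0.02. The split of these other bright genes depends on scaling, with 1195 positive after quantile normalization and 588 after centring on array medians. The bright ribosomal protein genes gave 34 and 33 of 34 positive under these scalings, and between 31 and 34 when any 1 array was left out. The level at which the 34 were separated was chosen after their values were seen, and no test was made on them.

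**Figure D3:**
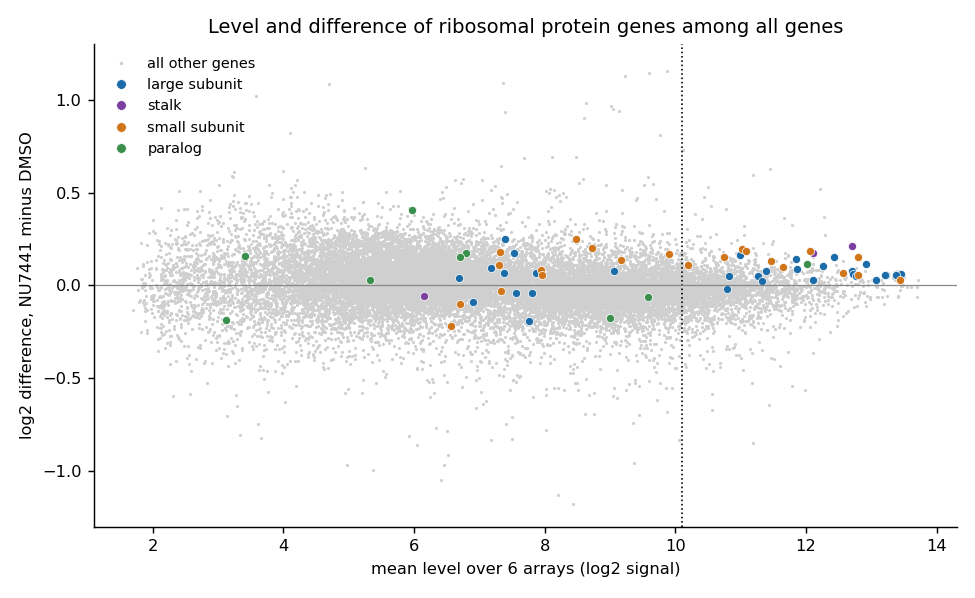
Log2 difference (NU7441 minus DMSO) against mean level over the 6 arrays for all genes in grey and the 66 ribosomal protein genes in colour, with a dotted line at 10.10, the lower limit of the brightest 10 percent. Right of the line 33 of 34 ribosomal protein genes lie above 0, while the other genes there are spread around a median of -0.02.

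Of the 66 genes, 24 had more than 1 probe set of their own. In 9 of the 24 the sign of the difference varied between probe sets: Rpl7, Rpl9, Rpl27, Rplp1, Rps18, Rps20, Rps24, Rps26 and Rps28. The dimmest probe set of Rplp1, at 7.92 with NU7441 and 7.92 with DMSO, gave a difference of -0.0033 where its brightest gave 0.21. For Rps28 the dimmest gave -0.09 and the brightest 0.15, and for Rps26 -0.20 and 0.06. Rpl4 went the other way, with 0.24 in its dim probe set and 0.06 in its bright one. With the dimmest probe set of each gene, 47 of the 66 had a positive difference and the median was 0.07. Rps12 had 8 probe sets, of which 6 held identical values, and all 8 gave positive differences, the dimmest 0.22.

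**Figure D4:**
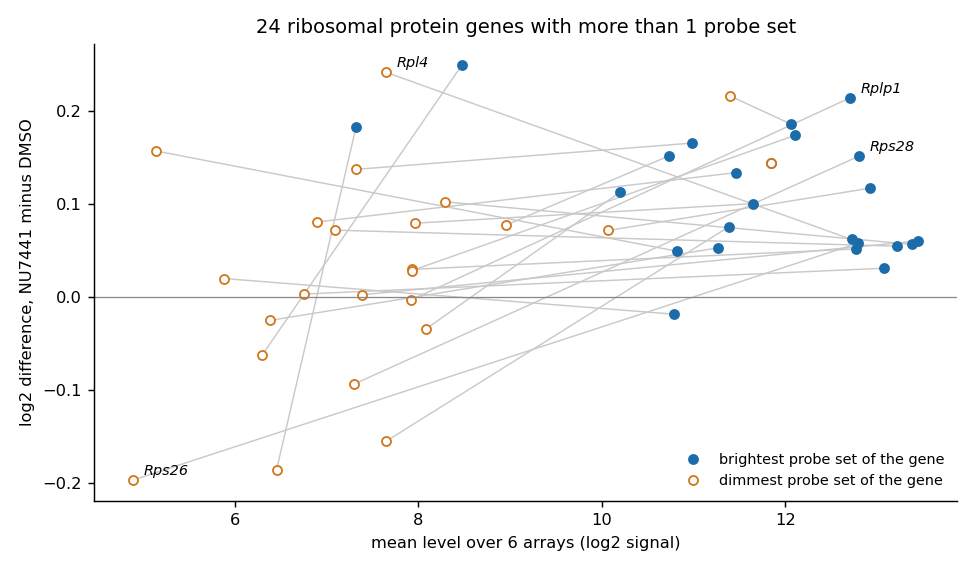
Log2 difference (NU7441 minus DMSO) against mean level over 6 arrays for the brightest (filled) and dimmest (open) probe sets of 24 ribosomal protein genes, joined by a line per gene. The brightest lie above 0 in all genes but Rpl9, and the dimmest range from -0.20 in Rps26 to 0.24 in Rpl4.

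A further set of probe sets, not used for the 66 genes, was read on the same 6 arrays. Symbols of the 66 genes were not excluded from it, so it is not an independent set. These are 57 probe sets annotated with several symbols of which at least 1 fits the choice, so no gene is named from them. Of the 57, 36 had a positive difference and 21 a negative one, with a median of 0.05, and 15 had all NU7441 values above all DMSO values and 6 all below, where 6.13% and 6.64% of all genes did. In the 22 of them at 10.10 or above, 20 were positive, with a median of 0.09 and a range from -0.14 to 0.25. In the 35 dimmer ones 16 were positive, with a median of -0.01.

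The arrays of each group were not alike in these genes. Against each gene's mean over the 6 arrays, the median over the 66 was 0.01, 0.06 and 0.07 in NU7441 1 to 3, against -0.09, 0.0049 and -0.05 in DMSO 1 to 3. The NU7441 medians were thus above all DMSO medians, with DMSO 2 just below NU7441 1. Within same-numbered pairs the median difference was 0.10, 0.04 and 0.11, with 54, 44 and 52 of 66 positive. In 35 genes all 3 pairs were positive and in 3 all were negative, against 16.0% and 16.6% of all genes. Other lists differed alongside. Of 10 genes of the ATF4 stress response 0 had a positive difference, with a median of -0.38, and of 13 cell cycle genes 13 had one, with a median of 0.11. Against the same means, the ATF4 list had a median of -0.27, -0.15 and -0.19 in NU7441 1 to 3 and -0.48, 0.66 and 0.40 in DMSO 1 to 3, and the cell cycle list 0.04, -0.21 and 0.34 with NU7441 and 0.08, -0.44 and 0.20 with DMSO. Osteoblast markers had -0.03, 0.10 and 0.67 with NU7441 and -0.50, -0.47 and 0.18 with DMSO, and in same-numbered pairs their median difference was 0.45, 0.57 and 0.43, with 10, 10 and 9 of 10 positive. Their part in the ribosomal differences was not tested.

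Lists of other genes that make or use ribosomes were mostly negative, apart from elongation and termination, and none had a member called at an adjusted p under 0.05 in limma. Of 42 genes of ribosome biogenesis, which process ribosomal RNA and assemble subunits in the nucleolus, 7 had a positive difference and 35 a negative one, with a median of -0.07 and 0 at an unadjusted p under 0.05. The assembly factors Ltv1, Pno1, Utp20 and Nip7 had the smallest p, with -0.18 (SE 0.09), -0.25 (SE 0.13), -0.14 (SE 0.07) and -0.11 (SE 0.06). Their list's array medians were -0.09, -0.02 and 0.01 with NU7441 against -0.13, 0.18 and 0.06 with DMSO, and without DMSO 2 its median difference was 0.0014, with 21 of 42 positive, while without DMSO 1 it was -0.15, with 0 of 42 positive, and without NU7441 1 -0.05. Of 71 mitochondrial ribosomal proteins, which build the separate ribosome of that organelle, 10 were positive and 61 negative, with a median of -0.08. In 15 of these all NU7441 values lay below all DMSO values and in 0 above, against 6.64% and 6.13% of all genes. Without DMSO 2 their median was -0.04, with 20 of 71 positive. The contrast of the ribosomal families was not itself tested.

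**Figure D5:**
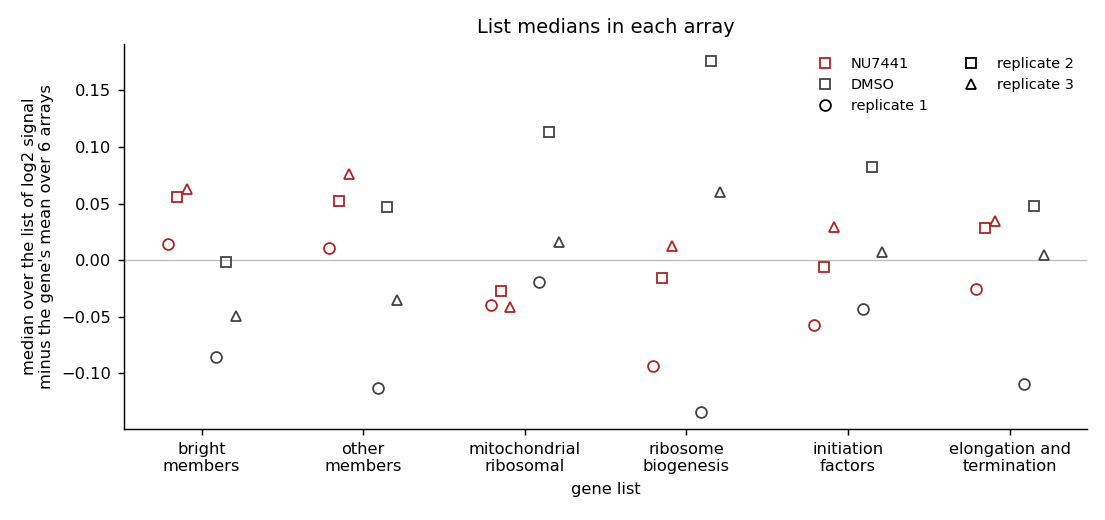
Median, over each gene list, of the log2 signal less each gene's mean over the 6 arrays, for each array, with NU7441 in red left of DMSO in grey and symbols for the replicate number. In bright ribosomal protein genes the 3 NU7441 medians lie above the 3 DMSO medians, in mitochondrial ribosomal proteins below them, and in ribosome biogenesis DMSO 1 and DMSO 2 mark the extremes.

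Translation factors lay between. Of 29 initiation factor genes 8 were positive and 21 negative, with a median of -0.03, which was 0.00025 without DMSO 2, -0.07 without DMSO 1, -0.06 without NU7441 3 and -0.0078 without NU7441 1. Eif5, which triggers GTP hydrolysis at the start codon, differed by -0.27 (SE 0.11), Eif4g2, a scaffold of cap-independent initiation, by -0.14 (SE 0.07), Eif3j1 by 0.17 (SE 0.09) and Eif3f by 0.11 (SE 0.06). Of 10 elongation and termination genes 8 were positive and 2 negative, with a median of 0.03, from 0.0028 without DMSO 1 and 0.01 without NU7441 3 to 0.06 without DMSO 2 and 0.06 without NU7441 1. Eef2, the translocase, differed by 0.08 (SE 0.06), Eef1b2 by 0.08 (SE 0.07) and Tpt1 by 0.12 (SE 0.08). These genes are known to share the pyrimidine start of ribosomal protein mRNAs, but their own windows were not looked at here. Whether that start bears on the differences was not tested. Etf1, the release factor, differed by -0.13 (SE 0.10). Among 16 genes of mTORC1 and growth signalling 6 were positive and 10 negative, and their median turned sign with the scaling, being -0.01 as deposited and 0.01 after quantile normalization. It was 0.02 without DMSO 2 and -0.04 without DMSO 1. Deptor, an inhibitor of mTOR, differed by 0.35 (SE 0.08, adjusted p = 0.619 in limma), at 9.07 ± 0.07 with NU7441 and 8.72 ± 0.10 with DMSO (SD, n = 3 each), with no overlap. Eif4ebp1, a repressor of cap-dependent initiation that mTORC1 inactivates, differed by -0.36 (SE 0.14), Larp1 by -0.11 (SE 0.07) and Rheb, the activator of mTORC1, by -0.11 (SE 0.06).

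At the exit of the ribosome, 12 genes that receive the nascent chain had 4 positive and 8 negative differences and a median of -0.04, which was -0.02 without NU7441 3 and -0.01 after quantile normalization, with 6 positive and 6 negative. Naca, which encodes alphaNAC, differed by 0.02 (SE 0.06) and its partner Btf3 by 0.11 (SE 0.06), while Sec61g, of the translocon, differed by -0.19 (SE 0.08), Srp19 by -0.11 (SE 0.08) and Dnajc2 by -0.09 (SE 0.07). Of 7 genes for stalled ribosomes 2 were positive and 5 negative, with a median of -0.09, which was -0.04 without DMSO 2 and -0.05 after quantile normalization. The kinase Map3k20, which senses collided ribosomes, differed by -0.17 (SE 0.06) and the ubiquitin ligase Ltn1 by -0.14 (SE 0.07), both without overlap, and Eif2ak4 by -0.09 (SE 0.08) and Zfp598 by -0.12 (SE 0.12), both with overlap. Medians over these small lists are descriptions of these 6 arrays.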

How the data were processed

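The deposited log2 values, 1 for each of 41345 probe sets on each array, were used as they stand. Their scale was inferred from the value range, since how the authors corrected, summarised and normalized the signal was not given in the sources used here. The total RNA, per the labels' protocols, was cleaned on columns before labelling. No column belonged to another sample (0), and no level filter was applied. By the platform annotation 23521 probe sets had 1 symbol, 1814 several and 16010 none here. For each gene the brightest single-symbol probe set was taken, giving 22180 genes, and the 66 ribosomal protein genes had 106 such probe sets.

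Differences are NU7441 minus DMSO. They were tested two-sided with lmFit and eBayes of limma 3.58.1 (R 4.3.3), with treatment alone in the model, p-values adjusted by Benjamini and Hochberg's method across the 22180 genes, and calls made under 0.05. The test was also run on simulated data with independent noise and known changes, all larger than any difference of the 66 genes. That run therefore does not show how the test performs on differences of their size. Precision is limited by there being 3 arrays a group. The members and lists were chosen with earlier results of these data known. The genes named were the stalk genes, Rpl5, Rpl11, all paralogs, the 8 of each subunit with the smallest p, the extremes of level and difference, genes whose probe sets differ in sign, up to 4 per related list by p, and Naca, Btf3 and Prkdc. Other genes were named after their values were seen. Same-numbered samples deviated together from their group means (correlations over genes of 0.149 to 0.339, against -0.25 to 0.09 for different numbers) and were taken as pairs in an alternative, although no label states a pairing. The other alternatives were a variance trend with robust prior, quantile normalization, median centring, level filters, other choices of probe set, array weights and leaving out each array. Promoters came from RefSeq (GRCm38.p6), which had starts for 51 of the 66 genes. Plots were made in Python 3.11.15 with matplotlib 3.10.9.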

Additional observations from a re-analysis of the deposited data

How the results depend on the processing

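In the alternatives other than the added one named below, none of the 66 ribosomal protein genes passed at an adjusted p under 0.05 in limma, the smallest being 0.402, and 45 of the 66 kept their sign in each of them. With the replicate number as a block (pairs), 0 genes were called and 9 of the 66 had an unadjusted p under 0.05, 8 higher and 1, Rpl7l1, lower, against 11 higher and 0 lower without pairs. Of all genes, 9.37% reached that threshold with pairs and 6.79% without. Pairs with a variance trend and robust prior, added after the data were seen, called 100 genes, 0 of the 66 among them. That model put 22 of the 66 at an unadjusted p under 0.05, 21 higher and 1 lower, where 11.2% of all genes were. The count of the 66 was 18 with the trend and robust prior alone, 5 with median centring, 7 with probe sets averaged and 6 with the dimmest probe set. These were all higher, and the shares of all genes in either direction were 6.81%, 6.67%, 6.69% and 6.68%. The cause was not tested. Leaving out 1 array gave 2 to 16, of which 2 to 16 were higher and 0 to 1 lower, and a median over the 66 of 0.05 to 0.11. The share of all genes at that threshold was then 5.29% to 7.87%. The paralog median of 0.11 turned to -0.061 where genes under the median level were left out, which removes paralogs, and was 0.039 without DMSO 2 to 0.12 without NU7441 1. Signal over background is unknown here, which limits statements on dim probe sets such as those of Rplp2, Rpl10l and Rpl32l.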
